A study of Mus musculus with 10 samples.

Results

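Cadherins and non-clustered protocadherins are cell-surface proteins that hold cells together or let them recognise each other. Their genes were taken from the footprint table by symbol: Cdh followed by a number, Pcdh followed by a number with or without a final x, and Celsr1 to Celsr3. The rule found 38 of the 22373 genes of the table and used no measured value. Of these, 30 passed a filter of at least 32 footprints, summed over both libraries, in at least 1 stage, and could be tested. Those that passed were all 3 Celsr genes, 3 of 5 type I classical cadherins, 10 of 13 type II classical cadherins, 2 of 5 other cadherins, all 4 delta-1 protocadherins, all 5 delta-2 protocadherins and all 3 other protocadherins.

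A cadherin binds through its extracellular domains to a cadherin on the next cell, in a calcium-dependent way. The tail of a classical cadherin holds catenins, which tie it to actin. In the neocortex, Cdh2 (N-cadherin) builds the adherens junctions that keep neural progenitors together at the ventricular surface, and type II cadherins label particular areas, layers and connections. Delta protocadherins are known for neuronal sorting, axon growth and synapse formation, and those of the delta-2 class can bind the WAVE complex, a regulator of actin branching. The Celsr proteins belong to the planar polarity system, which orients cells and axons within a sheet of tissue.

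Ribosome footprints are mRNA fragments protected by ribosomes, so a count depends on how much of an mRNA there is and on how densely ribosomes sit on it, and these cannot be told apart from footprints alone. The tissue was neocortex of wild-type CD-1 mice, dissected at embryonic days E12.5, E14, E15.5 and E17 and on the day of birth, P0, with 2 libraries a stage. Each library was a pool of brains from timed pregnancies, without separation by sex, so p-values measure the spread between pools. No group carried a transgene, deletion or drug, and ribosomes were not stalled with cycloheximide.

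The libraries held between 7544404 counts (P0 replicate 1) and 36129988 counts (E14 replicate 2). Over 4559 well-covered genes, the SD of the log2 ratio between replicates was 0.13 to 0.22 in the embryonic stages and 0.54 at P0. Markers of the labelled tissue were present in every library: 8 progenitor genes summed to between 192 and 1298 CPM (a count divided by the TMM-scaled size of its library), and 8 neuron genes to between 1623 and 5431 CPM. A pair of libraries stood apart. E12.5 replicate 1 and P0 replicate 2 held transcripts of small intestine epithelium, with 10 such genes summing to 99.1 and 158 CPM, against at most 0.634 CPM in the other 8 libraries. Markers of tissue next to the neocortex also moved. From E14 to E15.5, 10 of 10 meningeal fibroblast markers (summed 68.6 and 77.0 CPM at E14, 3.58 and 2.997 CPM at E15.5), 8 of 8 choroid plexus markers tested (summed 1168 and 1175 CPM, then 15.4 and 12.4 CPM) and 10 of 10 endothelial markers (summed 34.0 and 44.1 CPM, then 11.7 and 9.79 CPM) were called lower. Of 12 ganglionic eminence and interneuron markers, 7 were called higher and 1 lower (summed 62.7 and 52.8 CPM, then 142 and 140 CPM), and 9 were higher and 1 lower at E17 and at P0 than at E12.5. Over all genes, 16.5% were called higher and 19.6% lower from E14 to E15.5. Against E12.5, the shares were 26.9% and 27.8% at E17 and 30.1% and 32% at P0. For these markers, changes in the number of cells of a type in the sample, in RNA per cell and in ribosome density cannot be told apart.

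The summed footprints of the family were highest at E17. Summed over the 38 genes, they came to 188 ± 4.8 CPM (SD, n = 2) at E12.5, 160 ± 16 CPM at E14, 172 ± 1.2 CPM at E15.5, 273 ± 4.5 CPM at E17 and 215 ± 5.4 CPM at P0. Both E17 libraries lay above all other libraries. A few genes weigh heavily in this sum: Cdh2 gave 82.4 CPM of it at E12.5 and 82.1 CPM at E17, and Cdh8 gave 47.1 CPM at E17. Of the 30 genes tested, 12 had their highest mean at P0, 10 at E17 and 8 at E12.5, and none had it at E14 or E15.5. The 12 include Cdh1 and Cdh17, whose P0 means rest on P0 replicate 2, with its intestinal transcripts. An F test across the 5 stages (limma-voom, Benjamini-Hochberg adjusted p under 0.05) called 24 of the 30, where it called 63.8% of all genes tested.

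A gene was called changed between 2 stages at an adjusted p under 0.05 (limma-voom, Benjamini-Hochberg over 13484 genes) and a level at least 25% higher at one stage than at the other. From E12.5 to E14, 0 of the 30 members were called by limma-voom, edgeR or DESeq2, with 6 at an unadjusted p under 0.05 in limma-voom. Over all genes, 0.497% were called higher and 0.141% lower at that step. The median fitted log2 fold change of the members was -0.20, against -0.0015 for all genes, and 6 of the 30 lay above 0.

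From E14 to E15.5, 7 members were called higher and 6 lower, or 23.3% and 20.0% of those tested. The background was 16.5% higher and 19.6% lower, so the members were called about as often as other genes. The 7 that rose were the type II genes Cdh8, Cdh10, Cdh12 and Cdh18, the delta-1 genes Pcdh7 and Pcdh9, and the delta-2 gene Pcdh8. The 6 that fell were Celsr1, Celsr2, the endothelial genes Cdh5 and Pcdh12, and the delta-2 genes Pcdh18 and Pcdh19. Cdh12 and Cdh18 passed the filter through neither of these stages, only through E17 and P0. Pcdh12 passed only through E12.5 and E14, so its call of a fall is in part set by the filter. Beside this step, 5 of 8 neuron markers (median 0.77) and 7 of 12 ganglionic eminence and interneuron markers (median 1.46) were called higher, and their part in the rises was not tested. With total counts in place of TMM scaling, the median of all genes rose by 0.29 at this step and the members split 9 higher to 5 lower. Without E14 replicate 1, E14 replicate 2, E15.5 replicate 1 or E15.5 replicate 2, the count of members called fell from 13 to 7, 7, 6 and 8.

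From E15.5 to E17 the family moved one way. Of the 30 members, 13 (43.3%) were called higher and 0 lower, where 5.61% of all genes were called higher and 3.43% lower. The fitted log2 fold change lay above 0 for 29 of 30, with a median of 0.82 against -5.2e-05 for all genes. The 29 include Cdh1 and Cdh17, whose sign carries no information. They had 0 counts in both E15.5 libraries and at most 1 in an E17 library. The 29 also include Cdh12, Cdh18 and Cdh20, which passed the filter only through E17 and P0. Their rise at this step is in part set by the filter, and Cdh12 is among the 13 called. All 4 delta-1 protocadherins and 4 of 5 delta-2 protocadherins rose, as did 4 of 10 type II cadherins and 1 of 3 type I cadherins. None of the 3 Celsr genes was called. The size of the shift did not depend on a single library, but the calls did: without any one of the 4 libraries of these stages, limma-voom called 0 members, with 16 to 18 at an unadjusted p under 0.05, 27 to 29 above 0 and a median between 0.78 and 0.85, while over all genes it then called 18 without E17 replicate 1 and 0 without each of the others. The markers of other cell types moved beside this step: the median change was 0.89 for 10 endothelial markers and 0.68 for 10 meningeal markers, with 1 of each called higher, and 3 of 4 oligodendrocyte lineage markers tested were called higher. Of the neocortical lists, 5 of 8 progenitor markers and 1 of 8 neuron markers were called lower. The part of these cell types in the members' change was not tested.

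**Figure D1:**
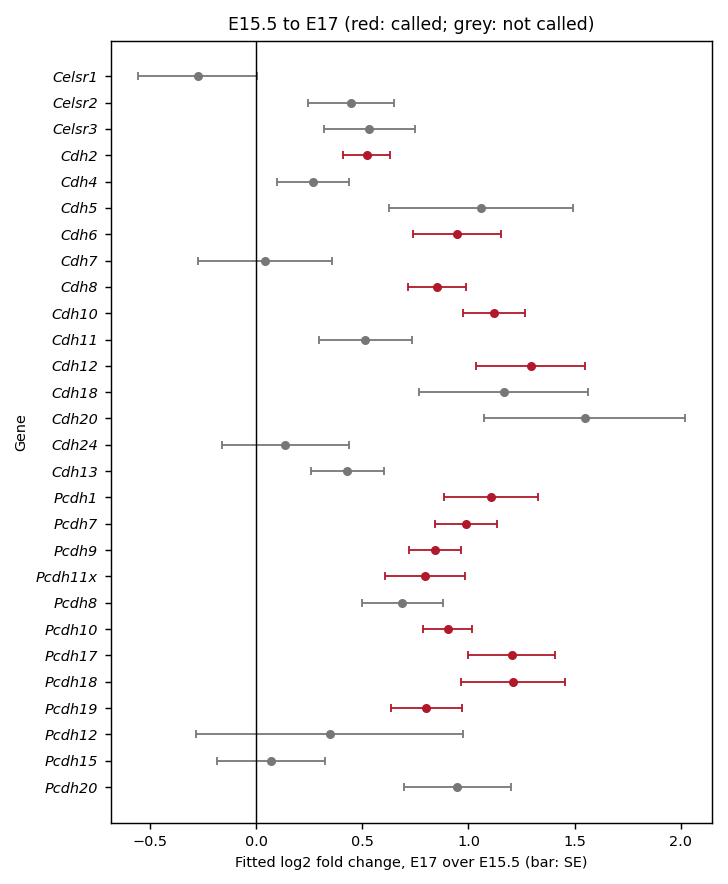
Fitted log2 fold change from E15.5 to E17 (x axis) for 28 members (y axis), with bars of 1 SE; called genes are red and the others grey. Cdh1 and Cdh17, listed at 0 counts in both E15.5 libraries, are left out. All plotted genes except Celsr1 lie above 0. Of these, Cdh12, Cdh18 and Cdh20 passed the filter only through E17 and P0.

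From E17 to P0, 2 members were called higher (Pcdh15 and Pcdh11x) and 6 lower (Celsr1, Cdh2, Cdh4, Cdh5, Cdh13 and Pcdh7), or 6.67% and 20.0%, against a background of 9.46% and 11.1%. The median change of the members was -0.25, against -0.023 for all genes. With total counts only, 3 were called higher and 2 lower, with sample quality weights 1 was called, and with no other stage in the fit limma-voom called 0, with 8 at an unadjusted p under 0.05. The count of 8 fell to 5 without either E12.5 library, to 4 without either E15.5 library or P0 replicate 2, to 1 without E17 replicate 1 and to 2 without E17 replicate 2.

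Against E12.5, 15 members were called higher and 6 lower at E17, or 50% and 20% of those tested, with a background of 26.9% and 27.8%. With total counts only, the median of all genes rose by 0.40 and the members split 19 to 3. At P0, 16 were called higher and 8 lower, or 53.3% and 26.7%, with a background of 30.1% and 32%. The median change at P0 was 0.89, against -0.013 for all genes. With total counts only, that of all genes was 0.51 and that of the members 1.42. These 2 comparisons share the E12.5 libraries. Cdh12, Cdh18, Cdh20 and Pcdh20, called higher at P0, passed the filter only through stages after E12.5. All of these except Cdh20 were also called higher at E17. Cdh24 and Pcdh12, called lower both at E17 and at P0, passed only through E12.5 and E14. The calls of these genes are in part set by the filter.

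**Figure D2:**
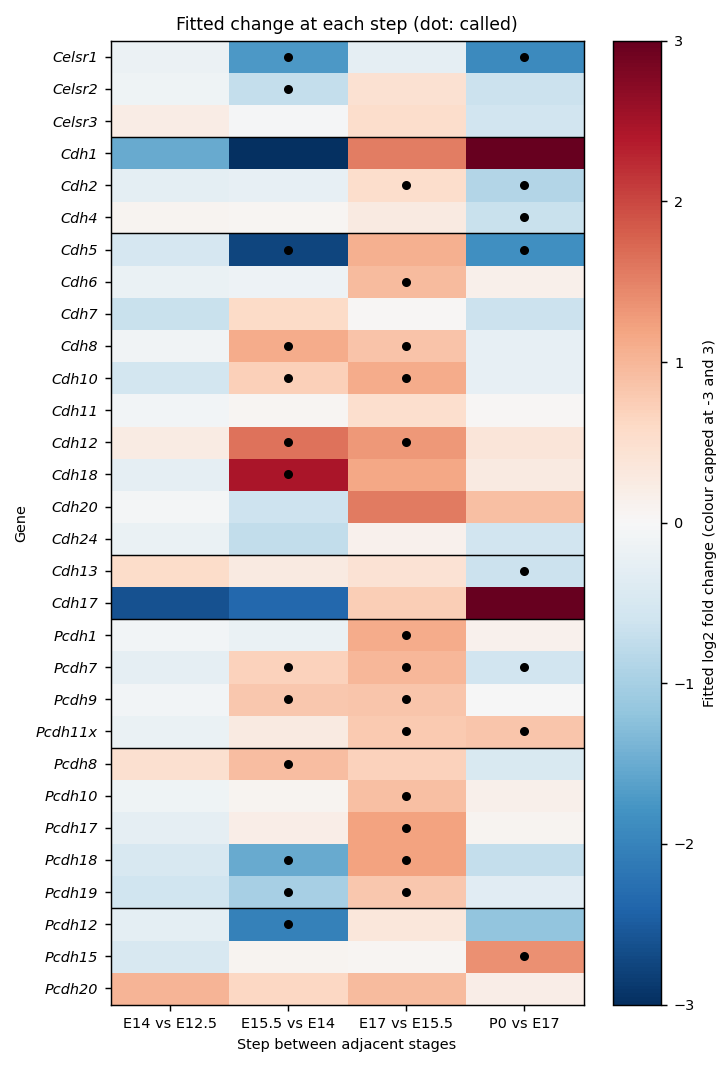
Fitted log2 fold change of the 30 members tested (rows, grouped by class) at each of the 4 steps between adjacent stages (columns). Red is higher and blue lower at the later stage, the colour is capped at 3 either way, and a dot marks a called gene; the E15.5 to E17 column is the one where 13 genes are called higher and 0 lower.

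The 3 Celsr genes had different courses. Celsr1, known in progenitors and epithelia, stood at 2.58 and 3.18 CPM (E12.5), 2.61 and 2.57 (E14), 0.843 and 0.675 (E15.5), 0.698 and 0.563 (E17) and 0.217 and 0.143 (P0), where the libraries held only 2 and 6 footprints of it. Every library from E15.5 on lay below every earlier one. On the log2 scale, it fell by 1.72 between E14 and E15.5 (SE 0.22, adjusted p = 0.00072), and P0 was below E12.5 by 4.08 (SE 0.43, adjusted p = 6.9e-05). Its fall from E17 to P0, by 1.91 (SE 0.46, adjusted p = 0.023), lost its call without E17 replicate 1 (-1.75), E17 replicate 2 (-2.05) or P0 replicate 2 (-1.23). The 8 progenitor markers were lower too, all 8 called both at E15.5 against E14 and at P0 against E12.5. Of all genes, 19.6% and 32% were called lower in these comparisons. The part of the progenitor markers in the change of Celsr1 was not tested.

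Celsr2, known for its role in ependymal cilia, was at 3.02 and 3.78 CPM (E12.5), 3.14 and 3.17 (E14), 1.87 and 1.98 (E15.5), 2.79 and 2.44 (E17) and 2.39 and 1.53 (P0). It was lowest at E15.5 and in P0 replicate 2. It fell from E14 to E15.5 by 0.71 (SE 0.20, adjusted p = 0.023) and was lower at P0 than at E12.5 by 1.02 (SE 0.21, adjusted p = 0.0032). The first call was lost without any single library of E14 or E15.5 (-0.66 to -0.75), with DESeq2 (-0.73) and with total counts (-0.42), and the other without P0 replicate 2 (-0.46) and with total counts (-0.51).

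Celsr3, known for the growth of the major forebrain axon tracts, was highest at E17. It held 1.43 and 1.76 CPM (E12.5), 1.72 and 2.03 (E14), 2.02 and 1.65 (E15.5), 2.73 and 2.63 (E17) and 2.61 and 1.60 (P0). The E17 libraries were above all others, and the P0 libraries were far apart. At E17 it was higher than at E12.5 by 0.72 (SE 0.23, adjusted p = 0.029), a call lost without any one of the 4 libraries of these stages (0.60 to 0.89) and with DESeq2 (0.73). With total counts the value was 1.14. At P0 the change was 0.14 (SE 0.25, adjusted p = 0.66).

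Among type I cadherins, Cdh2 gave most of the footprint counts. It stood at 83.4 and 81.3 CPM (E12.5), 62.1 and 73.0 (E14), 57.6 and 56.6 (E15.5), 86.0 and 78.1 (E17) and 47.1 and 42.1 (P0). Both P0 libraries were lower than every embryonic library. Cdh2 rose from E15.5 to E17 by 0.52 (SE 0.11, adjusted p = 0.028), fell from E17 to P0 by 0.89 (SE 0.11, adjusted p = 0.0025), and was lower at P0 than at E12.5 by 0.89 (SE 0.11, adjusted p = 0.00021). The rise lost its call without either E12.5 library (0.52) or any one of the E15.5 and E17 libraries (0.45 to 0.59). With total counts only, the difference between P0 and E12.5 was -0.37 and was still called.

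Cdh4 (R-cadherin), a close relative that can also bind Cdh2, changed less. It held 5.00 and 5.72 CPM (E12.5), 5.61 and 5.77 (E14), 5.84 and 6.04 (E15.5), 7.78 and 6.53 (E17) and 5.87 and 3.98 (P0). It fell from E17 to P0 by 0.67 (SE 0.18, adjusted p = 0.034). That call was not stable: it was lost without each library in turn other than P0 replicate 1, with values between -0.79 and -0.24, the smallest without P0 replicate 2, and with edgeR (-0.60), DESeq2 (-0.56) and total counts (-0.57).

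Cdh1 (E-cadherin), the classical cadherin of epithelia, followed the intestinal transcripts. It gave 23 and 5 counts (E12.5), 3 and 4 (E14), 0 and 0 (E15.5), 1 and 1 (E17) and 1 and 63 (P0). The libraries with 23 and 63 counts are those with intestinal transcripts, in which Cdh1 came to 1.28% and 0.949% of the summed intestinal genes. Limma-voom on all 10 libraries called no change. The fitted log2 fold change was 4.36 from E17 to P0 (SE 1.86, adjusted p = 0.13) and 1.33 for P0 against E12.5 (SE 0.91, adjusted p = 0.23). The latter turned to -0.32 without E12.5 replicate 2. Without P0 replicate 1, which left the P0 library with intestinal transcripts alone, both were called (4.88 and 1.86). DESeq2 on all 10 libraries called the change from E17 to P0 (4.63, adjusted p = 0.049). Counts of 0 at E15.5 allow up to 0.0904 and 0.127 CPM, and this limit covers counting error only.

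Type II cadherins changed in both directions. Of the 10 tested, 6 were called higher at P0 than at E12.5 (Cdh6, Cdh8, Cdh10, Cdh12, Cdh18 and Cdh20) and 2 lower (Cdh5 and Cdh24). Over all genes, 30.1% were called higher and 32% lower. Cdh12, Cdh18 and Cdh20 passed the filter only through E17 and P0, and Cdh24 only through E12.5 and E14. Cdh7 and Cdh11 were not called (-0.69, adjusted p = 0.11, and 0.54, adjusted p = 0.074). Each of these last values depended on the P0 libraries: Cdh7 was called at -1.01 without P0 replicate 1 and stood at -0.031 without P0 replicate 2, and Cdh11 was called at 0.76 and stood at 0.16.

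Cdh8 carried the clearest rise. It stood at 14.4 and 11.9 CPM (E12.5), 10.8 and 13.3 (E14), 25.7 and 26.6 (E15.5), 46.7 and 47.5 (E17) and 35.9 and 42.7 (P0). Levels within a stage were close, and every library from E15.5 on lay above all earlier ones. It rose by 1.11 from E14 to E15.5 (SE 0.15, adjusted p = 0.00077), by 0.85 from E15.5 to E17 (SE 0.14, adjusted p = 0.014) and by 1.85 from E12.5 to E17 (SE 0.14, adjusted p = 2e-05), a 3.62-fold change. At P0 it was 1.60 above E12.5 (SE 0.15, adjusted p = 3.3e-05). The rise from E15.5 to E17 lost its call without any one of the 4 libraries of those stages (0.82 to 0.87), and the other calls of Cdh8 held in every setting.

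Cdh10 rose with it after a lower level at E14. It held 4.51 and 4.00 CPM (E12.5), 2.78 and 2.98 (E14), 4.67 and 4.90 (E15.5), 9.59 and 11.3 (E17) and 7.61 and 9.42 (P0). Both E14 libraries were lower than all others, and the P0 libraries lay within the range from E15.5 to E17. The change was 0.72 from E14 to E15.5 (SE 0.17, adjusted p = 0.011), 1.12 from E15.5 to E17 (SE 0.15, adjusted p = 0.0079) and 1.05 for P0 against E12.5 (SE 0.16, adjusted p = 0.00057). The calls of both steps were lost without any one of their 4 libraries (0.67 to 0.77 and 1.00 to 1.246), and with total counts the difference between P0 and E12.5 was 1.58.

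The other type II members that were higher at P0 than at E12.5 were sparse early on. Cdh12 had 2 and 3 counts at E12.5 and 13 and 65 at P0 (adjusted p = 0.00038), and Cdh18 had 1 and 1 counts, then 6 and 34 (adjusted p = 0.0031). With so few early counts, no fold is given. Cdh20 was higher by 1.78 (SE 0.41, adjusted p = 0.0054) and Cdh6 by 0.75 (SE 0.21, adjusted p = 0.014), the latter without a call when E12.5 replicate 2 was left out (0.48) or with DESeq2 (0.75), and at 1.28 with total counts. Cdh24 was lower by 1.36 (SE 0.31, adjusted p = 0.0049), without a call when P0 replicate 2 was left out (-1.04) or with DESeq2 (-1.35), and at -0.85 with total counts.

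**Figure D3:**
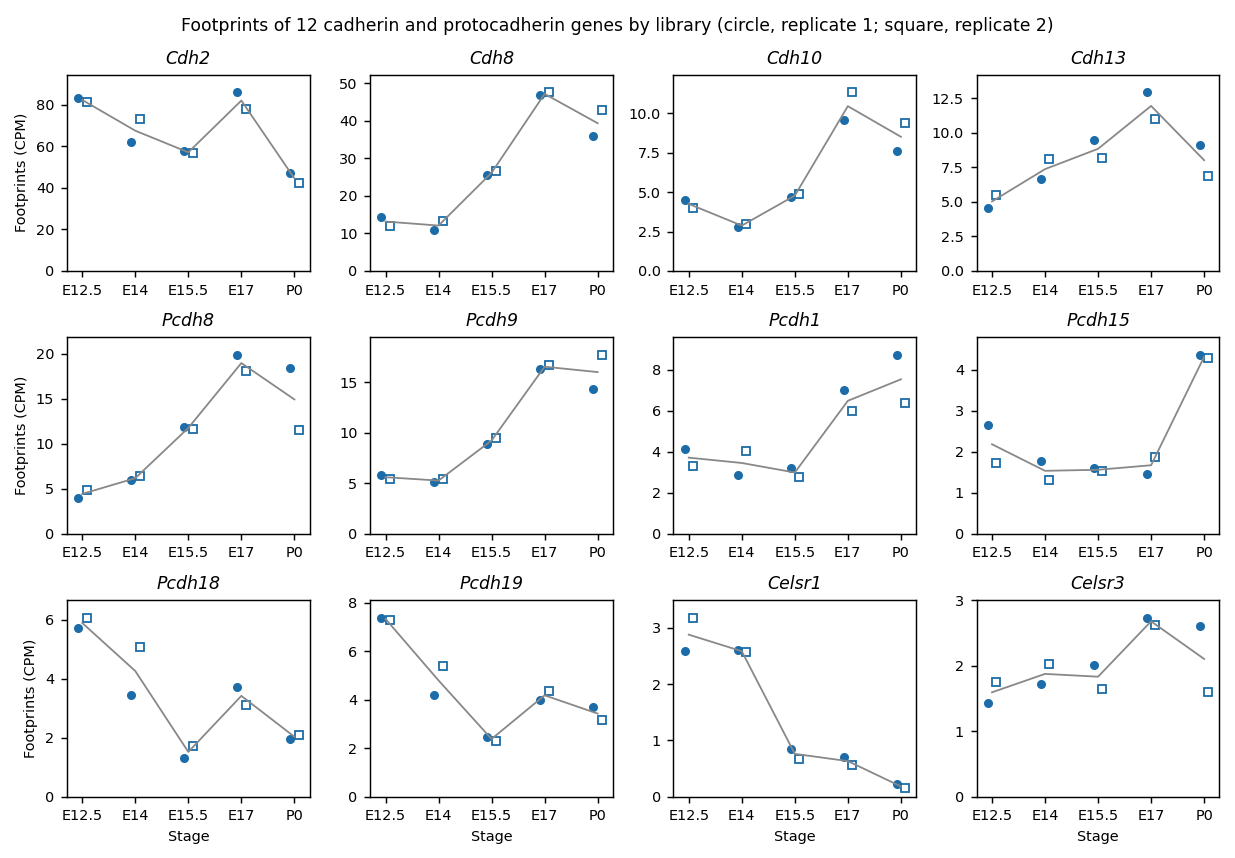
Footprints in CPM (y axis, starting at 0, with a scale for each panel) by stage (x axis) for 12 members; circles are replicate 1, squares replicate 2 and the grey line joins the stage means (n = 2). Cdh8, Cdh10, Pcdh8 and Pcdh9 are higher from E17 on than at E12.5, Pcdh18, Pcdh19 and Celsr1 are lower, and Pcdh15 is high at P0 alone.

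Cdh5 (VE-cadherin), the defining cadherin of endothelial junctions, fell with the other endothelial genes. It stood at 3.74 and 4.00 CPM (E12.5), 2.08 and 3.39 (E14), 0.392 and 0.380 (E15.5), 0.794 and 0.863 (E17) and 0.217 and 0.215 (P0). All libraries from E15.5 on were below 1 CPM. The fall was by 2.76 from E14 to E15.5 (SE 0.39, adjusted p = 0.0012), by 2.21 from E12.5 to E17 (SE 0.28, adjusted p = 0.00027) and P0 lay below E12.5 by 4.06 (SE 0.51, adjusted p = 2e-04), and these calls held in every setting. The fall from E17 to P0, by 1.84 (SE 0.55, adjusted p = 0.047), was lost without any single library of E12.5, E15.5, E17 or P0 (-1.60 to -1.91) and with total counts (-1.75). Of the 10 endothelial markers, 10 were called lower at E15.5 than at E14 and 10 at P0 than at E12.5. Of all genes, 19.6% and 32% were called lower in these comparisons. Relative to their sum, Cdh5 went from 7.96% and 7.89% at E12.5 to 1.72% and 2.83% at P0, where it had 2 and 9 counts. Pcdh12, a protocadherin of endothelial cells, had 16 and 39 counts (E12.5), 20 and 33 (E14), 11 and 3 (E15.5), 9 and 8 (E17) and 0 and 7 (P0). It fell from E14 to E15.5 by 2.03 (SE 0.53, adjusted p = 0.018), a call lost without E14 replicate 2 (-1.90), E15.5 replicate 1 (-2.75) or E15.5 replicate 2 (-1.52), and with DESeq2 (-2.05).

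Of the other cadherins, only Cdh13 and Cdh17 passed the filter. Cdh13 (T-cadherin), which is anchored by a lipid and has no tail for catenins, held 4.56 and 5.50 CPM (E12.5), 6.62 and 8.11 (E14), 9.49 and 8.19 (E15.5), 12.9 and 10.96 (E17) and 9.13 and 6.89 (P0). Its mean was higher at each embryonic stage than at the one before and was lower at P0. It was higher at E17 than at E12.5 by 1.23 (SE 0.19, adjusted p = 0.00077) in every setting. The fall from E17 to P0, by 0.65 (SE 0.18, adjusted p = 0.038), kept its call without P0 replicate 1 and lost it without any other single library (-0.76 to -0.35, the smallest without P0 replicate 2), and was not called with edgeR (-0.61), DESeq2 (-0.57) or total counts (-0.54). At P0 it was 0.59 above E12.5 (SE 0.20, adjusted p = 0.032), a value that was 1.11 with total counts and 0.89 without P0 replicate 2, and not called without E12.5 replicate 1 (0.46), E12.5 replicate 2 (0.73) or P0 replicate 1 (0.45), or with sample quality weights (0.65).

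Cdh17 (LI-cadherin), the cadherin of intestinal epithelium, had 64 and 4 counts (E12.5), 2 and 2 (E14), 0 and 0 (E15.5), 1 and 0 (E17) and 0 and 219 (P0). Almost all of them lay in the libraries with intestinal transcripts, where Cdh17 came to 3.55% and 3.30% of the summed intestinal genes. It was not called in any comparison. Its fitted change from E12.5 to P0 was 2.17 (SE 1.62, adjusted p = 0.27), was -0.55 when E12.5 replicate 2 was left out and -3.39 when P0 replicate 2 was, and was called at 3.26 without P0 replicate 1. From E17 to P0 it was 6.40 (SE 4.36, adjusted p = 0.32), and 0.86 without P0 replicate 2.

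**Figure D4:**
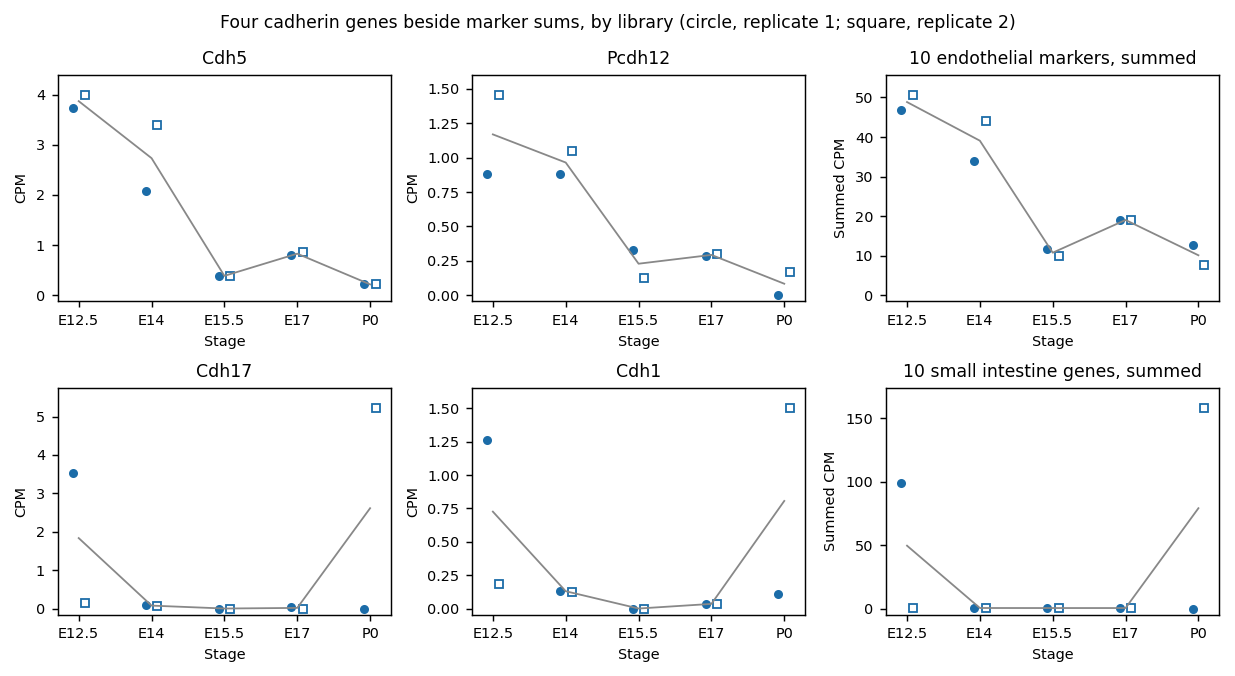
Footprints in CPM (y axes) by stage (x axes) for Cdh5, Pcdh12, Cdh17 and Cdh1 beside the sums of 10 endothelial markers and of 10 small intestine genes; circles are replicate 1, squares replicate 2 and grey lines join the means. Cdh5 and Pcdh12 drop at E15.5 with the endothelial sum, and Cdh17 and Cdh1 are high in E12.5 replicate 1 and P0 replicate 2, the libraries in which the intestinal sum is 99.1 and 158 CPM.

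The delta-1 protocadherins rose together. Their summed level was 15.48 ± 2.1 CPM (SD, n = 2) at E12.5, 13.7 ± 1.4 CPM at E14, 20.0 ± 0.37 CPM at E15.5, 38.1 ± 0.46 CPM at E17 and 36.095 ± 0.0029 CPM at P0. The small SD at P0 arose from opposite differences that cancelled. Pcdh9 and Pcdh11x were higher in replicate 2, and Pcdh1 and Pcdh7 in replicate 1. All 4 were called higher at E17 than at E15.5, and all 4 at P0 than at E12.5, where 5.61% and 30.1% of all genes were. Pcdh9 stood at 5.83 and 5.38 CPM (E12.5), 5.12 and 5.42 (E14), 8.95 and 9.54 (E15.5), 16.4 and 16.7 (E17) and 14.4 and 17.7 (P0). No library from E15.5 on overlapped the earlier ones. Pcdh9 rose by 0.80 from E14 to E15.5 (SE 0.13, adjusted p = 0.0024), by 0.84 from E15.5 to E17 (SE 0.12, adjusted p = 0.0098) and was 1.54 above E12.5 at P0 (SE 0.13, adjusted p = 2.5e-05). Leaving out any one E15.5 or E17 library ended the call of its rise to E17 (0.79 to 0.88) and none of its other calls.

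Pcdh1 changed at E17. It held 4.12 and 3.29 CPM (E12.5), 2.87 and 4.02 (E14), 3.22 and 2.74 (E15.5), 6.98 and 5.97 (E17) and 8.70 and 6.35 (P0). The E17 and P0 libraries were above all earlier ones. The rise from E15.5 to E17 was 1.11 (SE 0.22, adjusted p = 0.024), lost without any one of its 4 libraries (0.99 to 1.23), and the difference between P0 and E12.5 was 0.95 (SE 0.23, adjusted p = 0.0064), lost without E12.5 replicate 2 (0.77). With total counts that difference was 1.48.

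The other delta-1 genes parted after E17. Pcdh7 was higher at E17 than at E12.5 by 1.40 (SE 0.16, adjusted p = 0.00015) and then fell to P0 by 0.57 (SE 0.15, adjusted p = 0.03). That fall was not called without either E15.5 library (-0.57 and -0.56), either E17 library (both -0.57) or P0 replicate 2 (-0.37), and neither with DESeq2 (-0.52) nor with total counts (-0.47). Pcdh11x, an X-linked gene, rose further to P0 by 0.83 (SE 0.16, adjusted p = 0.01), not called without either E17 library (0.81 and 0.84) or with DESeq2 (0.83), and was higher at P0 than at E12.5 by 1.70 (SE 0.20, adjusted p = 0.00013) in every setting.

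The delta-2 protocadherins did not share one course. At P0 against E12.5, Pcdh8, Pcdh10 and Pcdh17 were called higher, and Pcdh18 and Pcdh19 lower. Over all genes, 30.1% were called higher and 32% lower. The promoters of Pcdh8, Pcdh18 and Pcdh19 are printed to set a gene that rose beside the pair that fell. They are the 250 bases before the start site in RefSeq, build GRCm38.p6, 5′ to 3′ on the strand of the gene, which is the minus strand for all 3. Capitals mark a TATA box (TATAAA) or a GC box (GGGCGG, or CCGCCC on the other strand).
Pcdh8, chr14:79771313-79771562: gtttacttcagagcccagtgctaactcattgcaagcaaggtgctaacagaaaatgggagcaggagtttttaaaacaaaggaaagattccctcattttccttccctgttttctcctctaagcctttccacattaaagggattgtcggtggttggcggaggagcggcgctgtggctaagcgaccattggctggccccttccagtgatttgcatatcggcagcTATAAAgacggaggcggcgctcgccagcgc
Pcdh18, chr3:49757317-49757566: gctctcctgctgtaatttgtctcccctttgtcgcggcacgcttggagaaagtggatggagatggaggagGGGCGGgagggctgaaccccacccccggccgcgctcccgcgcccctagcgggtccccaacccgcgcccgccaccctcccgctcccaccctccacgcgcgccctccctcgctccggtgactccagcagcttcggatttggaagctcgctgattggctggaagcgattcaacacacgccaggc
Pcdh19, chrX:133688994-133689243: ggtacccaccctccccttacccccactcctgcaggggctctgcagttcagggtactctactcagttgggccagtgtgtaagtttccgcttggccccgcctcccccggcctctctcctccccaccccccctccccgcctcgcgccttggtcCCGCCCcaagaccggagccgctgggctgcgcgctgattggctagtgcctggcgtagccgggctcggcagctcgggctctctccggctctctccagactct
The Pcdh8 window holds a TATA box that begins 30 bases before the start, no GC box and 11 CpG sites. The Pcdh18 and Pcdh19 windows hold a GC box each, beginning 181 and 100 bases before the start, no TATA box, and 23 and 16 CpG sites, where the median of the 32851 promoters of the table is 6. Searched on both strands, TATAAA was in 12.4% of all promoters and in 2 of the 27 promoters matched to 24 members, and GGGCGG in 32.7% and in 10. The E-boxes CAGATG and CACCTG were in 14.4% and 17.2% of all promoters and in 3 and 4 of the members' promoters. Promoters of Pcdh10 and Pcdh17, the delta-2 genes called higher at P0 along with Pcdh8, also held the GC box. In this class the box was thus found in genes of either direction. These matches are descriptions of the letters in each window.

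Pcdh8 (arcadlin), which acts in the activity-dependent removal of Cdh2 from synapses, stood at 3.96 and 4.90 CPM (E12.5), 5.92 and 6.43 (E14), 11.9 and 11.6 (E15.5), 19.8 and 18.1 (E17) and 18.4 and 11.5 (P0). The P0 libraries differed more than those of the other stages. Pcdh8 rose by 0.93 from E14 to E15.5 (SE 0.21, adjusted p = 0.0099), a call lost without E14 replicate 1 (0.87), E14 replicate 2 (0.98) or E15.5 replicate 1 (0.91). From E15.5 to E17 the change was 0.69 (SE 0.19, adjusted p = 0.062), and it was called without P0 replicate 1 (0.69) or P0 replicate 2 (0.68). At E17 it was 2.08 above E12.5 (SE 0.22, adjusted p = 1e-04), a 4.24-fold change, and at P0 1.62 above it (SE 0.23, adjusted p = 0.00037), in every setting.

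Pcdh10 and Pcdh17 changed at a single step. Pcdh10 rose from E15.5 to E17 by 0.90 (SE 0.11, adjusted p = 0.0074) and Pcdh17 by 1.20 (SE 0.20, adjusted p = 0.015). They were 1.01 and 1.22 higher at P0 than at E12.5 (SE 0.12 and 0.22, adjusted p = 0.00014 and 0.0015) and called in every setting, with Pcdh10 at 1.54 with total counts. As with all calls from E15.5 to E17, those of the step were lost without any one of the 4 libraries (0.83 to 0.98 for Pcdh10 and 1.14 to 1.28 for Pcdh17), and DESeq2 did not call Pcdh17 (1.246).

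Pcdh18 and Pcdh19 fell and partly came back. Pcdh19, the X-linked gene mutated in a form of epilepsy, held 7.37 and 7.29 CPM (E12.5), 4.20 and 5.39 (E14), 2.47 and 2.28 (E15.5), 4.00 and 4.35 (E17) and 3.70 and 3.15 (P0). Pcdh18 held 5.72 and 6.06 CPM (E12.5), 3.44 and 5.07 (E14), 1.30 and 1.73 (E15.5), 3.71 and 3.12 (E17) and 1.96 and 2.10 (P0). Both genes were lowest in the E15.5 libraries and above them in both E17 libraries. From E14 to E15.5, Pcdh19 fell by 1.00 (SE 0.17, adjusted p = 0.0024) and Pcdh18 by 1.52 (SE 0.24, adjusted p = 0.0019). From E15.5 to E17 they rose by 0.80 (SE 0.17, adjusted p = 0.026) and 1.21 (SE 0.24, adjusted p = 0.024). At P0 they were below E12.5 by 1.15 (SE 0.16, adjusted p = 0.00038) and 1.503 (SE 0.24, adjusted p = 0.00068). The falls to E15.5 and to P0 were called in every setting, though with total counts those to P0 were smaller, -0.63 for Pcdh19 and -0.99 for Pcdh18. The rises lost their calls without any one of the E15.5 and E17 libraries (0.74 to 0.87 for Pcdh19 and 0.97 to 1.38 for Pcdh18), and that of Pcdh19 also without either E12.5 library (0.80) and with DESeq2 (0.83). At E17 they were below E12.5 by 0.81 (SE 0.15, adjusted p = 0.0021) and 0.79 (SE 0.20, adjusted p = 0.011), but with total counts these were -0.40 and -0.37 and not called, and Pcdh18 was also not called without E12.5 replicate 2 (-0.75) or E17 replicate 2 (-0.66). The summed meningeal markers, 104 and 106 CPM at E12.5, were likewise lowest at E15.5 in replicate 2 (2.997 CPM) and held 8.32 and 5.25 CPM at E17, and their part in the course of these genes was not tested.

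Pcdh15, a component of the tip links of hair cells together with Cdh23, rose between E17 and P0, as Pcdh11x did. It held 2.64 and 1.72 CPM (E12.5), 1.77 and 1.30 (E14), 1.60 and 1.52 (E15.5), 1.46 and 1.88 (E17) and 4.35 and 4.27 (P0). The P0 libraries were close to each other and lay above all embryonic ones. It rose from E17 to P0 by 1.38 (SE 0.23, adjusted p = 0.0059), not called without E17 replicate 1 (1.19), and was 1.05 above E12.5 (SE 0.23, adjusted p = 0.0041), not called without E12.5 replicate 2 (0.69). With total counts it was 1.58 above E12.5. Oligodendrocyte lineage markers summed to 23.6 and 30.4 CPM at E17 and 80.0 and 49.5 CPM at P0. Of the 4 tested, 2 were called higher from E17 to P0, where 9.46% of all genes were. The part of these markers in the change of Pcdh15 was not tested. Pcdh20, the remaining protocadherin, was higher at P0 than at E12.5 by 2.77 (SE 0.44, adjusted p = 0.00074), with 7 and 6 counts at E12.5 and 25 and 78 at P0.

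Genes of several members lie next to each other, in the order of coding genes of the RefSeq table (GRCm38.p6). On chromosome 15, Cdh6, Cdh9, Cdh10 and Cdh12 are consecutive and Cdh18 is the next but one; the 4 of these that were tested were all called higher at P0 than at E12.5. On chromosome 14, Pcdh8, Pcdh17, Pcdh20 and Pcdh9 lie within a few genes of each other and all 4 were called higher. Over all genes tested, 30.1% were called higher in this comparison, and 16 of the 30 members. Cdh12, Cdh18 and Pcdh20 passed the filter only through stages after E12.5, so their calls of a rise are in part set by the filter. Neighbours did not always go together: on chromosome 8, the consecutive genes Cdh8, Cdh11 and Cdh5 were higher, not called and lower, and on chromosome 3, Pcdh10 (higher) and Pcdh18 (lower) lie 2 coding genes apart.

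Catenins link the cadherin tail to actin. Of 10 catenins and related junction proteins, 3 were called higher and 3 lower from E14 to E15.5, where 16.5% and 19.6% of all genes were, with the largest rise in Ctnna2, the neural alpha-catenin (1.05, SE 0.13, adjusted p = 0.00055), and the largest fall in Vcl (vinculin; -1.31, SE 0.17, adjusted p = 0.00072). At P0 against E12.5, 4 were higher and 5 lower, with 30.1% and 32% over all genes: Jup (plakoglobin) was up by 2.05 (SE 0.17, adjusted p = 1.6e-05), and Ctnna1, the alpha-catenin of epithelia, fell by 2.34 (SE 0.13, adjusted p = 1.9e-06). The median of this list at P0 was -0.42, smaller than the 0.51 by which the median gene moves with the scaling. At the E15.5 to E17 step, where 13 cadherin genes rose, 2 of these 10 partners were called lower and 0 higher. Over all genes, 3.43% were called lower and 5.61% higher at this step. The median change of the 10 partners was -0.25. The larger fall was that of Ctnna1 (-0.77, SE 0.12, adjusted p = 0.012), a call lost without any one of the 4 libraries (-0.71 to -0.82).

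The planar polarity partners of the Celsr proteins were mostly lower at P0 than at E12.5, with 6 of 10 called lower, 2 higher and a median of -1.58. Over all genes, 32% were called lower and 30.1% higher, and the median gene moves by 0.51 with the scaling. Prickle2 was up by 3.35 (SE 0.20, adjusted p = 3.3e-06) and Ptk7 fell by 2.86 (SE 0.20, adjusted p = 6.7e-06). From E14 to E15.5, 6 were lower and 2 higher, where 19.6% and 16.5% of all genes were. Prickle2 was up by 1.49 at that step (SE 0.18, adjusted p = 5e-04). Fzd6, a Frizzled receptor, was down (-1.84, SE 0.34, adjusted p = 0.004), but not called without E15.5 replicate 1 (-1.47). Of the WAVE complex, 6 of 9 genes were higher and 2 lower at P0, where 30.1% and 32% of all genes were. Wasf1, the neuronal form, was up by 1.76 (SE 0.12, adjusted p = 7.6e-06) and Wasf2 fell by 1.85 (SE 0.16, adjusted p = 2.4e-05). Between E14 and E15.5 the WAVE list had 5 called higher and 1 lower, beside 16.5% and 19.6% of all genes. Its median change at the next step, where 4 delta-2 genes rose, was 0.06.

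Of the giant Fat and Dachsous cadherins and their regulator Fjx1, 5 of 7 were tested. At P0 against E12.5, 3 were called lower, where 32% of all genes were. Fat1 fell from E14 to E15.5 by 1.91 (SE 0.17, adjusted p = 0.00014), rose from E15.5 to E17 (1.22, SE 0.17, adjusted p = 0.009, not called without any one of the 4 libraries, 1.09 to 1.37) and was lower at P0 than at E12.5 (-1.05, SE 0.14, adjusted p = 0.0003; -0.52 and still called with total counts). This is the order of changes seen in Pcdh18 and Pcdh19.

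The 8 members under the filter were Cdh3, Cdh9, Cdh15, Cdh16, Cdh19, Cdh22, Cdh23 and Cdh26, and they were not tested. Cdh26 had 0 counts in all libraries. Cdh3 (P-cadherin) had 3, 5, 4 and 12 counts in the E12.5 and E14 libraries and 0 in each of the 6 later ones. Cdh15 (M-cadherin), the cadherin of skeletal muscle, had 0 counts at E12.5 and E14 and 5 and 11 at P0, and Cdh9 went from 1 and 2 counts at E12.5 to 5 and 17 at P0. A count of 0 allows 3 counts, or between 0.0716 CPM (P0 replicate 2) and 0.326 CPM (P0 replicate 1).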

How the data were processed

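Counts of footprints per gene were used as deposited, as whole numbers with no scaling to depth. The authors made them from Ribo-seq reads: adapters trimmed, duplicate sequences collapsed, rRNA and tRNA reads removed with Bowtie 2, and the rest aligned with STAR to GENCODE coding transcripts with multimapping reads kept. Whether its counts passed through the study's isoform estimates is not given in the sources used here, so genes with similar copies are uncertain.

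The 13484 genes (of 22373) that reached 32 footprints in a stage were fitted in R 4.3.3 with limma-voom (limma 3.58.1) on TMM-scaled sizes (edgeR 4.0.16), with 1 coefficient per stage over all 10 libraries. Tests were two-sided, adjusted by Benjamini-Hochberg. Symbols matched 22274 of 22373 identifiers. Alternatives were edgeR, DESeq2 1.42.0, other scalings, filters and weights, a replicate block and leaving out libraries. The code was tested on simulated counts.

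Members and lists were chosen with earlier results of these data known. The intestinal genes were chosen after seeing these values. Members given in full were the 4 with the highest mean CPM, the 3 largest called rises and 3 largest called falls of each comparison among those with a mean of at least 50 counts, and Cdh1, Cdh2, Cdh5 and Celsr1 to Celsr3; Cdh17, Pcdh12 and sparse genes were added after their values were seen. CPM is not per length, so levels are not compared between genes.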

Additional observations from a re-analysis of the deposited data

How the results depend on the processing

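The counts of members called at each comparison were recomputed under 10 other settings and without each library in turn. Leaving out 1 library gave 0 to 1 called from E12.5 to E14, 6 to 14 from E14 to E15.5, 0 to 17 from E15.5 to E17, 1 to 12 from E17 to P0, 15 to 25 for E17 against E12.5, 20 to 28 for P0 against E12.5 and 24 to 29 across the stages. From E12.5 to E14, the count was 1 with sample quality weights and 1 without both P0 libraries, a setting chosen after seeing the data. From E15.5 to E17, it was 8 with DESeq2 and 22 with sample quality weights. From E17 to P0, it was 5 with DESeq2, 5 with total counts only, 1 with sample quality weights and 4 without both libraries that hold intestinal transcripts, also chosen after seeing the data. When other stages were left out of the fit, limma-voom called 0 members from E17 to P0, with 8 at an unadjusted p under 0.05. The correlation of the deviations of same-numbered samples lay between -0.64 and 0.43 and was over 0.1 in 5 of 10 pairs of stages. Those 5 pairs lie among E14, E15.5, E17 and P0, where the correlation of E14 and E17 was -0.044, and all pairs with E12.5 were negative (-0.64 to -0.11). The numbers were therefore not taken as a pairing, and the block keeps them as labelled. With a replicate block, 5 members were called from E17 to P0 in place of 8, and 0, 12, 11, 19 and 24 at the other comparisons in the order above. Of the values of single members, 4 turned in sign: Cdh1 at P0 against E12.5 to -0.32 and Cdh17 to -0.55 without E12.5 replicate 2, Cdh17 to -3.39 without P0 replicate 2 and Celsr3 to -0.023 without P0 replicate 1. Without each library in turn, these 3 values lay between -0.32 and 2.32, between -3.39 and 3.83, and between -0.023 and 0.74. Of the values of named genes under all settings, the other 1560 kept their direction and side of the threshold, 176 lost a call and 13 gained one. The cause of these changes was not tested. Depth limits precision most in P0 replicate 1, with 7544404 counts.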
